A study of Mus musculus with 3 samples.

Results

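The bases on either side of a CpG were used to sort CpG cytosines of E14 mESCs, pluripotent cells of a long-established mouse line, into classes, and the level of each class was read by TAPSβ, CAPS and PS. A class is given by the 2 bases before the cytosine and the 2 bases after the CpG, read 5′ to 3′ on the strand of that cytosine, and is written as in taCGgt, where the capitals mark the CpG. The classes form 120 pairs of a sequence and its reverse complement and 16 that are their own reverse complement. Members were the autosomal CpG cytosines more than 3 kb from every transcript start and outside dense runs of 20 or more CpGs, so that promoters and CpG islands did not set the values. These were 32329506 of the 42684984 CpG cytosines of the NCBIM37 (mm9) reference (75.7%), each strand counted on its own. Of them, 30661140 were listed in at least 1 library, 30093979 in all 3 and 1668366 (5.16%) in none. The rule used sequence and position only, and no measured level.

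The cells were grown on gelatin with serum, LIF, the MEK inhibitor PD0325901 and the GSK3 inhibitor CHIR99021, and gDNA of the same cells went into 1 library per method. TAPSβ protects 5hmC with glucose before TET oxidation and borane reduction, so that 5mC is read as T. CAPS oxidises 5hmC chemically, without TET, before borane reduction. PS uses borane reduction alone, which turns 5fC and 5caC into T. The same 2 bases are also converted in the other methods, so that a small part of each TAPSβ and CAPS level can come from them. The level of a class is the number of modified reads over all reads, summed over its cytosines. With no replicate, the 95% exact (Clopper-Pearson) intervals cover counting error only, and the 19 autosomes are given as parts of the same library, not as replicates.

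Methylation of CpGs is written by DNMT3A and DNMT3B and copied onto the new strand by DNMT1. Both writers are known to read the bases next to the CpG. The TET enzymes oxidise 5mC to 5hmC and onwards to 5fC and 5caC, which the glycosylase TDG removes. A CpG is methylated on both strands as a rule, but the bases beside the cytosine differ between the strands unless the sequence is its own reverse complement.

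Single cytosines from the 2 classes with the highest and the 2 with the lowest CAPS level at equal TAPSβ level show what the classes look like on the genome. They were picked by their reads, the first pair for the most modified CAPS reads and the second pair for full methylation in TAPSβ with no CAPS signal, so they are examples and not evidence. All of them also had to have no modified PS read, so the lack of PS signal at them was set by this choice. The windows are from the NCBIM37 reference, on the strand of the cytosine, with the CpG in capitals.
taCGgt in an intron of Hmgcll1, chr9:75925559-75925588, plus strand: tgccacaggaattaCGgtcctgaccttgaa
taCGcg in an intron of Itga9, chr9:118769122-118769151, plus strand: tggaatgcagcttaCGcgcaaggtgctttc
ttCGaa in an intron of Sox5, chr6:144177381-144177410, plus strand: ggctgcgtgaagttCGaaacacttaccagg
atCGaa between annotated genes, chr17:84461560-84461589, minus strand: ggtattccttctatCGaaagacgggtctca

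At the cytosine in Hmgcll1, 8 of 16 CAPS reads were modified (50%, 95% interval 24.7 to 75.3%), with 7 of 18 in TAPSβ and 0 of 10 in PS. On the other strand of the same CpG, CAPS had 0 modified reads of 10 while TAPSβ had 11 of 21. At the cytosine in Itga9, 7 of 12 CAPS reads, 3 of 13 TAPSβ reads and 0 of 13 PS reads were modified, and the other strand again had 0 of 8 in CAPS. At the cytosine in Sox5, 27 of 27 TAPSβ reads but 0 of 13 CAPS reads and 0 of 11 PS reads were modified. The one between genes had 23 of 23 modified reads in TAPSβ, 0 of 11 in CAPS and 0 of 10 in PS. The 0 of 13 and 0 of 11 CAPS reads allow levels of up to 24.7% and 28.5%, so single cytosines cannot carry the comparison and all that follows rests on pooled reads.

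Over all members, 63.98% of 392043756 TAPSβ reads, 3.175% of 297728684 CAPS reads and 0.2302% of 297626179 PS reads were modified. Among members with at least 5 PS reads, 36254 had 20% or more of them modified, here called high-PS cytosines, and without them the PS level was 0.1754%. They were chosen by their PS reads, so a PS level without them is a description and may lack true 5fC or 5caC sites along with variants. CAPS was 20% or more in 48.3% of the high-PS cytosines with at least 5 CAPS reads, and in 3.77% of the other cytosines. Their CAPS level was 29.4%, against 3.14% in the others. How many of them are C-to-T variants was not tested. The PS level of all members lay below the false-positive rate that the study's spike-in DNA gave for PS, as did those of 15 of the 16 classes with 1 base on either side. Autosomal cytosines outside the rule had 33.7% in TAPSβ, 3.034% in CAPS and 0.2775% in PS. On either side of the distance limit the levels were close: 59.0% in TAPSβ and 3.73% in CAPS at 2 to 3 kb from a start, outside the rule, and 59.9% and 3.74% at 3 to 4 kb, inside it. Across the limit on runs they were 34.0% in TAPSβ in runs of 20 to 24 CpGs, outside, and 43.0% in runs of 15 to 19, inside, with 3.50% and 3.53% in CAPS. PS there was 0.532% outside and 0.408% inside, both above the level of all members. The number of listed cytosines per class ranged from 11126 to 411587.

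For CAPS, the base just before the cytosine set the classes apart more than any other base. With adenine before it the CAPS level was 3.87% (95% interval 3.87 to 3.88%), with cytosine 3.75% (3.75 to 3.76%), with guanine 2.54% (2.53 to 2.54%) and with thymine 2.28% (2.27 to 2.28%). Classes with adenine or cytosine before the CpG thus stood apart from those with guanine or thymine. The ratio of adenine to thymine was 1.70, and it lay between 1.67 and 1.72 on every one of the 19 autosomes. The ratio of cytosine to guanine was 1.48, from 1.46 to 1.50 by autosome. The difference between adenine and cytosine was small, a ratio of 1.03, but adenine was higher on all 19.

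TAPSβ followed another order. Its level was 67.96% with guanine before the cytosine, and 63.78%, 62.80% and 62.50% with cytosine, adenine and thymine. Guanine had the highest TAPSβ level and a low CAPS level, and adenine and thymine, which differed by a ratio of 1.70 in CAPS, had almost the same TAPSβ level. In PS the levels were 0.266% with adenine, 0.231% with cytosine, 0.235% with guanine and 0.185% with thymine. Without high-PS cytosines these became 0.210%, 0.176%, 0.170% and 0.139%. The adenine to thymine ratio of PS was 1.44 with all cytosines and 1.51 without the high-PS ones, above 1 on all 19 autosomes, while cytosine and guanine changed order with that filter. Without the cytosines at 20% or more in CAPS the PS levels were 0.221%, 0.187%, 0.188% and 0.149%, a ratio of adenine to thymine of 1.48.

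The base after the CpG made a smaller difference. In CAPS, guanine there gave the highest level, 3.44%, followed by thymine with 3.23%, adenine with 3.05% and cytosine with 2.91%. TAPSβ was highest with cytosine after the CpG, at 67.43%, against 62.58% to 63.62% with the other bases. PS was highest with thymine after it, at 0.245%, and lowest with adenine, at 0.219%. The order of CAPS by the base after the CpG held on all 19 autosomes, but it changed at equal TAPSβ level, as given below.

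Taken on both sides at once, 16 classes resulted, and aCGg had the highest CAPS level, 4.36% (4.35 to 4.37%). The lowest CAPS level was that of tCGc, 2.08% (2.07 to 2.08%), a ratio of 2.101 that ranged from 2.038 to 2.138 over the autosomes. In TAPSβ the ends were gCGc with 70.04% and tCGa with 60.16%, a ratio of 1.164. In PS they were aCGt with 0.299% and tCGt with 0.178%, a ratio of 1.679 with a wider range of 1.472 to 1.874 over the autosomes. All 8 classes with adenine or cytosine before the CpG had a CAPS level of at least 3.51%, and all 8 with guanine or thymine one of at most 2.87%. The plot of the 16 classes shows this gap in CAPS at each base after the CpG.

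**Figure D1:**
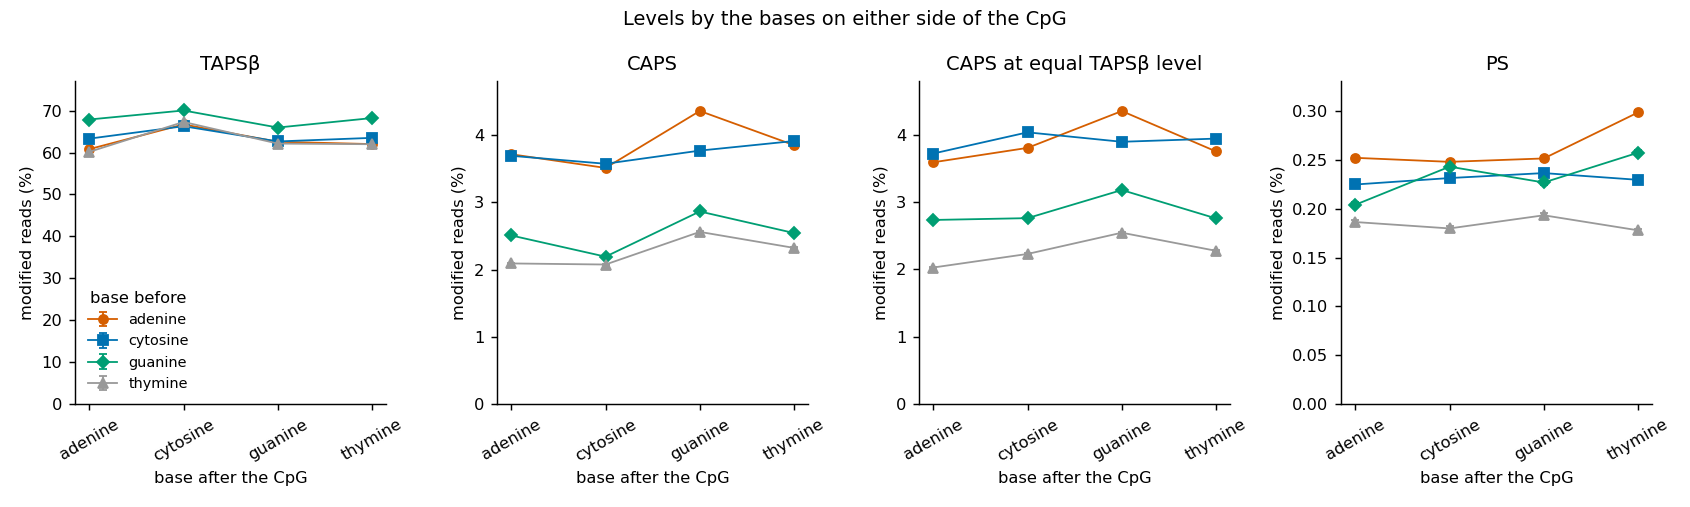
Modified reads in percent (y axis, from 0) for the 16 classes, with the base after the CpG on the x axis and 1 line per base before the cytosine. Panels show TAPSβ, CAPS, CAPS at equal TAPSβ level and PS, and the bars are 95% intervals of counting error, most of them smaller than the symbols. In CAPS the lines for adenine and cytosine (3.51% to 4.36%) lie above those for guanine and thymine (2.08% to 2.87%), while in TAPSβ the line for guanine is the highest.

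A higher CAPS level in a class could go with a higher or a lower supply of 5mC, so CAPS was also compared at equal TAPSβ level. Cytosines with at least 10 TAPSβ reads were put into 5 strata of their own TAPSβ level, each 20 points wide, and the CAPS levels of the strata were averaged with the same weights in every class. At equal TAPSβ level the CAPS level was 3.84% with adenine before the cytosine, 3.87% with cytosine, 2.85% with guanine and 2.25% with thymine. The gap between guanine and thymine went from a ratio of 1.11 to 1.26, and that between adenine and thymine was 1.71 against 1.70 without the strata. The ratios without strata are over all members, also those with under 10 TAPSβ reads. How much of the change comes with that minimum was not tested. With strata from the CpGs within 500 bp the guanine to thymine ratio was 1.09 and the adenine to thymine ratio 1.71. Adenine and cytosine were not told apart, since the ratio of 0.992 was above 1 on 5 autosomes and below it on the others. Their order also turned with strata from both strands, from the other strand or from neighbouring CpGs. It turned as well at equal CpG density and with at least 10 reads in every library. Of the 16 classes, aCGg stayed highest with 4.36% and tCGa was lowest with 2.03%, a ratio of 2.147 that lay between 2.062 and 2.201 by autosome. By the base after the CpG, the CAPS level at equal TAPSβ level was 3.51% with guanine, 3.26% with cytosine, 3.22% with thymine and 3.01% with adenine. Cytosine after the CpG, lowest without the strata, thus lay above thymine and adenine. With strata from the CpGs within 500 bp it was again lowest, at 2.86%.

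CAPS was highest in the stratum with a TAPSβ level of 20 to 40% for all 4 bases. There it reached 6.86% with adenine, 8.06% with cytosine, 6.43% with guanine and 3.79% with thymine before the CpG. At a TAPSβ level of 80 to 100% it was 2.91%, 2.62%, 1.81% and 1.79%. Adenine exceeded thymine by a similar ratio in every stratum, from 1.58 to 1.81. The ratio of guanine to thymine was 1.70 at 20 to 40% and 1.01 at 80 to 100%, so that in highly methylated cytosines these 2 bases had nearly the same CAPS level. Cytosine to thymine ranged from 1.46 at 80 to 100% to 2.13 at 20 to 40%.

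No other position reached the spread of the base before the cytosine in CAPS or PS. The ratio of the highest to the lowest level over the 4 bases was 1.701 in CAPS at the base just before the cytosine, 1.27 at the base before that, 1.184 just after the CpG and 1.09 at the next base. At positions 3 to 10 on either side it lay between 1.102 and 1.198, so that some of these were above the bases just after the CpG. At equal TAPSβ level the third base after the CpG had 1.276, second to the 1.719 of the base before the cytosine. PS had a single peak at the base before the cytosine, 1.438, against 1.071 to 1.119 at the other 3 bases of the class and 1.01 to 1.108 further out. TAPSβ had no such peak: its ratios were 1.117, 1.087, 1.078 and 1.108 at the 4 bases in order and 1.017 to 1.068 beyond them. The TAPSβ values at the 2 outer bases came mainly from thymine 2 bases before the cytosine, 68.55%, and from adenine 2 bases after the CpG, 68.04%, against 61.37% to 63.78% for the other bases at those places.

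**Figure D2:**
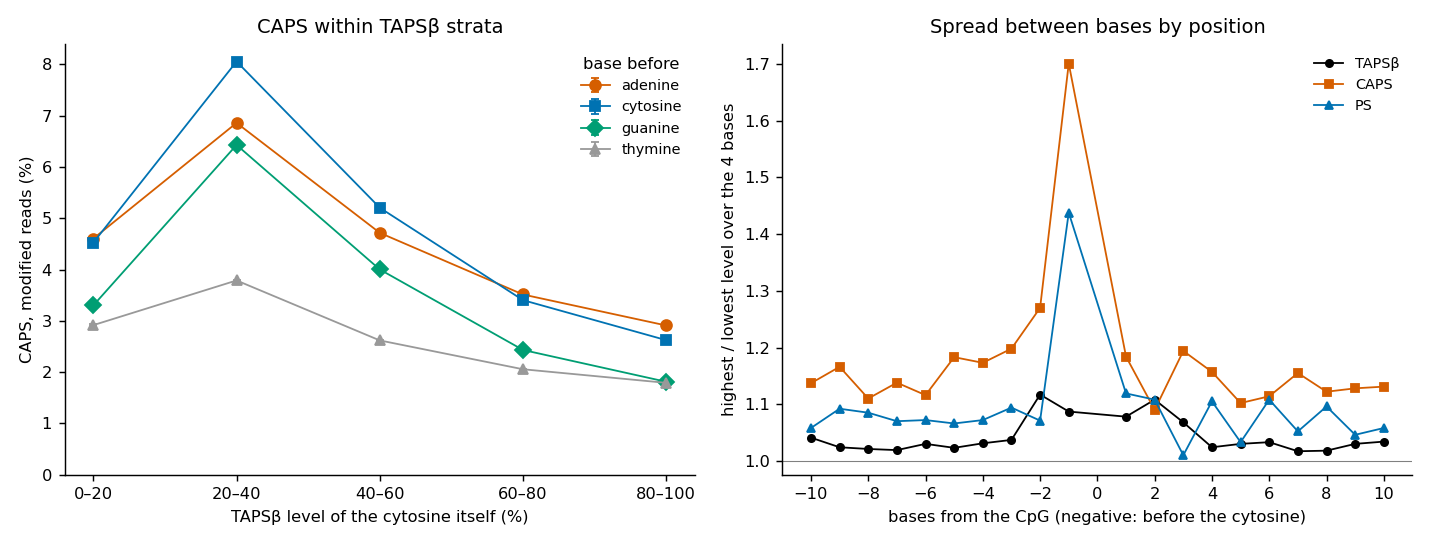
Left, CAPS level in percent (y axis) in 5 strata of the TAPSβ level of the same cytosine (x axis), with 1 line per base before the cytosine and bars for 95% intervals of counting error. The right panel gives the ratio of the highest to the lowest level over the 4 bases (y axis) at each distance from the CpG in bases (x axis), for TAPSβ, CAPS and PS. CAPS peaks at 20 to 40% TAPSβ for every base, and its ratio of 1.701 at the base before the cytosine stands above those at all other positions.

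With all 4 bases the CAPS level of the classes ran from 1.24% to 5.38%, a ratio of 4.321, with a median of 3.10%. The 4 highest were gcCGtc with 5.38%, gcCGgt with 5.33%, taCGgt with 5.24% and gaCGgt with 5.23%. The 4 lowest were cgCGcg with 1.24%, ttCGaa with 1.46%, ttCGca with 1.50% and cgCGca with 1.55%. Of the 64 highest classes 37 had adenine and 27 cytosine before the CpG, and of the 64 lowest 26 had guanine and 38 thymine there. At equal TAPSβ level the highest were taCGgt with 5.95% (5.89 to 6.01%), taCGcg with 5.85%, taCGgc with 5.80% and gcCGgt with 5.50%. The lowest were then ttCGaa with 1.46% (1.44 to 1.48%), atCGaa with 1.55%, ttCGat with 1.58% and ttCGac with 1.59%. These ends had a ratio of 4.077 although taCGgt and ttCGaa had TAPSβ levels of 70.8% and 64.9%. The class cgCGcg, lowest without the strata, had 2.20% at equal TAPSβ level. Many of its cytosines had few TAPSβ reads. Of 49633 with at least 5 CAPS and 5 PS reads and a PS level below 20%, 21624 also had at least 5 TAPSβ reads.

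TAPSβ spanned a narrower range, from 50.26% in aaCGtt to 79.00% in tgCGta, a ratio of 1.572. The next highest were tgCGca with 78.2%, taCGca with 76.7% and agCGta with 76.3%, and the next lowest aaCGac with 52.9%, cgCGgg with 53.6% and ccCGcg with 53.9%. Thymine 2 bases before the cytosine was found in 36 of the 64 highest classes and in 2 of the 64 lowest. Adenine 2 bases after the CpG likewise was found in 36 of the 64 highest and 2 of the 64 lowest. The 2 patterns mirror each other, since thymine 2 bases before one cytosine is adenine 2 bases after the CpG on the other strand. Across these classes (n = 120 pairs and 16 palindromes) TAPSβ and CAPS levels had a Pearson r of -0.138, a description over classes that share libraries and, in pairs, the same CpGs.

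The 4 highest PS levels were 0.731% in tgCGcg, 0.545% in cgCGcg, 0.483% in tgCGtg and 0.380% in cgCGtg, against a median class of 0.225% and a lowest of 0.153% in atCGga. These 4 classes also had many high-PS cytosines, 0.898% of those with at least 5 PS reads in tgCGcg and 0.382% in cgCGtg, where the median class had 0.121%. Without high-PS cytosines tgCGcg had 0.382% and was still the highest, followed by tgCGtg with 0.278%, cgCGcg with 0.273% and aaCGtt with 0.272%. A filter that does not use PS, leaving out cytosines with 20% or more in CAPS over at least 5 reads, kept the same 4 classes highest, with 0.526% in tgCGcg, 0.392% in cgCGcg, 0.354% in tgCGtg and 0.308% in cgCGtg and a median class of 0.182%. This filter took out 15108 of the 36254 high-PS cytosines, and 148 of 361 in tgCGcg. Most of them stayed in, so it could not tell variants from other PS signal. Without high-PS cytosines the lowest were ttCGcg with 0.113%, atCGtc with 0.114%, ttCGct with 0.114% and atCGcc with 0.117%. Thymine stood before the CpG in 50 of the 64 lowest classes and adenine in 41 of the 64 highest.

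**Figure D3:**
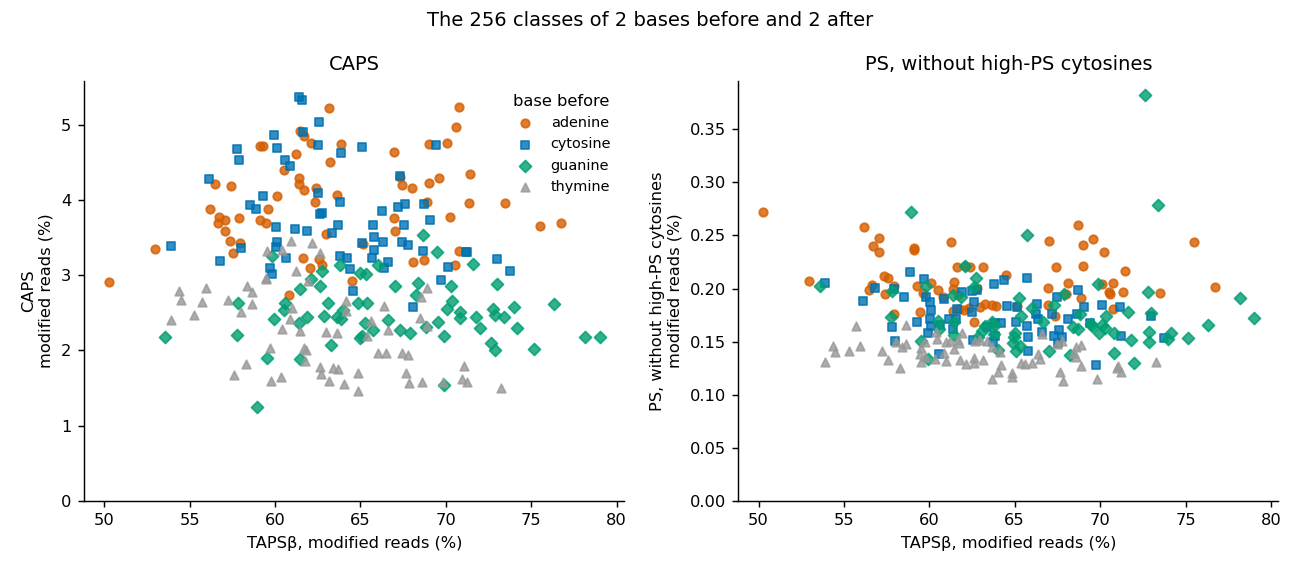
Each point is 1 class of 2 bases before and 2 after the CpG, placed by its TAPSβ level (x axis, percent of modified reads) and its CAPS level or its PS level without high-PS cytosines (y axes, percent, from 0), with colour and symbol for the base before the cytosine. In CAPS the points for adenine and cytosine lie mostly above those for guanine and thymine over the whole TAPSβ range, and in PS the thymine points lie lowest, with tgCGcg at 0.382% on top.

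The share of cytosines that pass a site test followed the order of the CAPS level by the base before the cytosine. A one-sided exact binomial test asked of each cytosine with 5 or more CAPS reads whether its level exceeded 0.0072, the rate of false positives in the study's methods. A call needed an adjusted p under 0.05 (Benjamini-Hochberg, over every such cytosine of the series). Of 28296825 members tested 470607 were called, 1.66%, against 1.64% in the whole series. The share was 2.37% with adenine before the cytosine, 2.19% with cytosine, 1.07% with guanine and 0.774% with thymine. Between the 16 classes it ran from 0.644% in tCGa to 2.76% in aCGg, while tCGc, the lowest in CAPS level, had 0.732%. Among the classes of 4 bases it ran from 0.341% in ttCGaa, where 472 of 138593 were called, to 4.07% in taCGgt, where 3635 of 89387 were.

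Single positions took up part of the differences between classes. In a weighted least-squares fit of the log2 level, the base before the cytosine alone took up 63.5% of the variance between classes in CAPS, 63.1% at equal TAPSβ level, 47.5% in PS and 14.6% in TAPSβ. All 4 positions together, added up, took 78.4%, 72.3%, 56.4% and 69.5%. Without high-PS cytosines the PS values were 59.8% and 72.1%. Letting the 2 bases before the CpG act jointly raised CAPS to 89.6%, and letting the 2 bases after it act jointly raised TAPSβ to 81.8%. The pair taCG showed this in CAPS: it had 4.66% at equal TAPSβ level, where aaCG had 3.28%, although atCG and ttCG, with 1.90% and 1.74%, showed the opposite order. Odd- and even-numbered chromosomes gave class levels with a Pearson r of 0.999 in TAPSβ, 0.998 in CAPS and 0.913 in PS, over the same 120 pairs and 16 palindromes, which share the library.

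The 2 strands of a CpG lie at the same place but are read in different contexts, which allowed a comparison within the same CpGs. Where both strands were listed, the cytosine of aCGa had 3.757% in CAPS and its partner tCGt 2.356%, a ratio of 1.595 (95% interval 1.589 to 1.600). Their TAPSβ levels were 61.67% and 63.40%, so the strand with more CAPS signal had slightly less TAPSβ signal. PS levels were 0.253% and 0.179%. For aCGc and its partner gCGt, CAPS had 3.566% and 2.578% while PS had the opposite order, 0.249% and 0.259%. For cCGa and tCGg, CAPS had 3.734% and 2.594%, and for cCGc and gCGg 3.629% and 2.901%. In both of these pairs TAPSβ was slightly higher on the strand with more CAPS signal, 64.22% against 63.37% and 67.54% against 67.15%. In these classes the difference was smaller where both strands had adenine or cytosine before them, 4.421% in aCGg against 3.980% in cCGt. It was also smaller with guanine and thymine, 2.531% in gCGa against 2.101% in tCGc.

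With 2 bases on each side there were 120 such pairs of classes, and in 64 of them 1 strand had adenine or cytosine and the other guanine or thymine before the CpG. CAPS was higher on the strand with adenine or cytosine in 58 of these 64, with a median ratio of 1.46 and a range of 0.931 to 2.21. TAPSβ was higher on that strand in 21 of 64, with ratios between 0.936 and 1.06, and PS in 51 of 64. Pairs with adenine or cytosine on both strands, or guanine or thymine on both, were not always closer in CAPS. For example, taCGgt had 5.307% and its partner acCGta 3.367%, and agCGat had 2.763% against 1.723% in atCGct. Others were nearly equal, such as caCGtc with 4.837% and gaCGtg with 4.691%. The largest CAPS ratio was between taCGat with 4.024% and its partner atCGta with 1.822%, a ratio of 2.208 (2.169 to 2.248), where TAPSβ was 69.89% and 72.82%. Next in ratio were taCGaa and ttCGta with 3.371% and 1.594%, gcCGat and atCGgc with 4.753% and 2.297%, and gcCGaa and ttCGgc with 3.997% and 1.954%. In points the difference was largest for gcCGat and atCGgc, at 2.46. The TAPSβ and CAPS differences between strands had opposite signs in 71 of the 120 pairs and the same sign in 49.

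**Figure D4:**
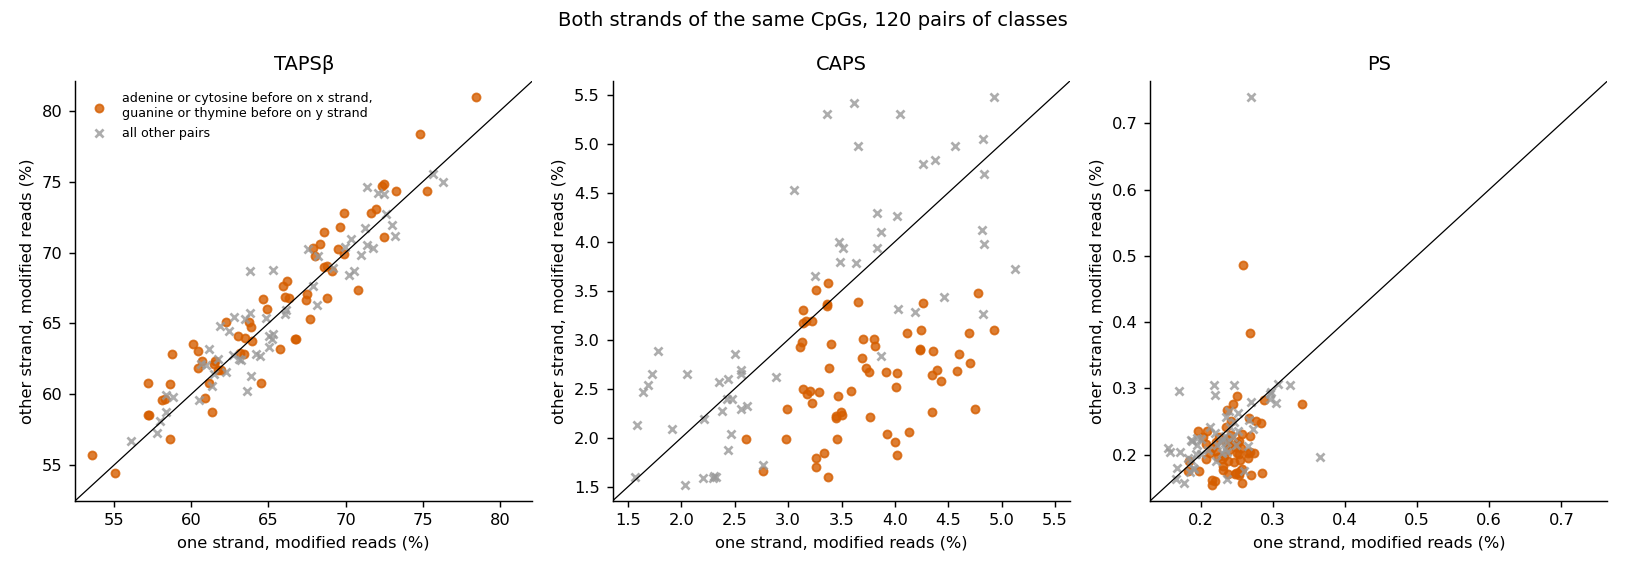
Each point is 1 of the 120 pairs of classes that are the 2 strands of the same CpGs, with the level on one strand on the x axis and on the other on the y axis (percent of modified reads), in TAPSβ, CAPS and PS, and with the line of equal levels. For the 64 filled points the x axis holds the strand with adenine or cytosine before the CpG and the y axis the one with guanine or thymine. In CAPS 58 of them lie below the line, while in TAPSβ all points stay near it.

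Classes that are their own reverse complement have the same context on both strands and hold some known binding sequences. The E-box core CACGTG, bound by MYC and other bHLH factors, made up 1.34% of the listed members and had 59.1% in TAPSβ, 3.74% in CAPS and 0.283% in PS. The CRE core GACGTC, bound by CREB when unmethylated, made up 0.34% and had the same TAPSβ level of 59.1% but 4.72% in CAPS and 0.306% in PS. gcCGgc had 57.8% in TAPSβ and 4.68% in CAPS, and ggCGcc, with the same bases in another order, 59.5% and 1.89%. taCGta had 75.5% in TAPSβ, 3.66% in CAPS and 4.79% at equal TAPSβ level, the highest of the 16 palindromes in that measure. tgCGca, with 78.2% in TAPSβ, had 2.18% in CAPS. ttCGaa was the lowest of all classes in CAPS at equal TAPSβ level. The ETS core acCGga, 0.42% of the listed members, had 66.3% in TAPSβ and 3.44% in CAPS, and its other strand tcCGgt 69.1% and 3.74%. A class was counted here wherever these 6 bases stood, and binding of any factor was not measured. The HpaII site cCGg had 3.77% in CAPS and 62.65% in TAPSβ, and the HhaI site gCGc 2.19% and 70.04%.

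The members were also sorted by the methylation around them. The other CpGs within 500 bp, with at least 20 TAPSβ reads in all, gave the neighbourhood level of a member. Where these neighbours were methylated at 80 to 100%, TAPSβ had 82.4% with guanine before the cytosine and 74.7% with thymine, and CAPS 1.42% and 1.52%. Where they were methylated at 0 to 20%, TAPSβ had 13.7% and 12.9% and CAPS 3.82% and 3.17%. Adenine remained above thymine in CAPS in all 5 neighbourhood strata, with 4.78% and 3.17% at 0 to 20% and 2.57% and 1.52% at 80 to 100%. Guanine and thymine changed order in CAPS between these ends. PS had 0.387% at 0 to 20% and 0.234% at 80 to 100% with adenine, and 0.248% and 0.173% with thymine.

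Levels at cytosines with little or no TAPSβ signal served as background. TAPSβ does not read 5hmC, so these cytosines can carry 5hmC. Their CAPS level can thus hold true signal, and subtracting it can remove part of that signal. These cytosines also carry little 5mC, whereas most member reads were modified in TAPSβ. In the study's spike-in DNA, unmodified cytosine and 5mC had different CAPS and PS rates. The background of methylated cytosines can thus differ from that of these sets. Outside the rule, near starts or in CpG runs, cytosines with at least 10 TAPSβ reads and none modified had a CAPS level of 1.04% over 20455973 reads. By the base before, this was 1.37% with adenine, 1.03% with cytosine, 0.839% with guanine and 1.16% with thymine. The adenine to thymine ratio was 1.18 here and 1.70 in the members. Subtracting this background left 2.50, 2.72, 1.70 and 1.12 points of CAPS in the 4 groups of members. In PS the same background had 0.325% with adenine, 0.263% with cytosine, 0.256% with guanine and 0.210% with thymine, all above the members' own levels. The adenine to thymine ratio of this PS background was 1.55, and the level of the members less this background was below 0 in each of the 16 classes.

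The values depended on the background taken. Members with at least 10 TAPSβ reads and none modified had a CAPS level of 1.953%, with 2.21%, 2.19%, 1.69% and 1.61% for adenine, cytosine, guanine and thymine before them and an adenine to thymine ratio of 1.37. Less this background, 1.67, 1.56, 0.85 and 0.668 points of CAPS were left. Their PS level was 0.211%, with 0.259%, 0.223%, 0.197% and 0.154% by the same bases and an adenine to thymine ratio of 1.68. The PS level of all members was above it in each of the 16 classes, by 0.00255 to 0.0558 points. Some of these differences lay within counting error. In cCGg the members' 0.237% was inside the 95% interval of this set, 0.224 to 0.245%. The members' level was also inside the interval of this set in cCGa and in each class with adenine before the cytosine. In aCGt, the highest of the 16 in PS, it was 0.299% against an interval of 0.283 to 0.308%. In the remaining classes the members' level lay above the interval of this set. This set takes in cytosines whose partner on the other strand is listed in no library. Without those its CAPS level was 2.892%, with 3.46%, 3.10%, 2.34% and 2.47% by the base before, an adenine to thymine ratio of 1.40. The members then lay 0.415, 0.659 and 0.201 points above it with adenine, cytosine and guanine and -0.191 points from it with thymine, and above it in 11 of the 16 classes. The PS level without them was 0.283%, and the members lay above it in 0 of the 16 classes. In both comparisons the members still included cytosines without a listed partner. Members with both strands listed had 3.216% in CAPS and 0.2314% in PS. The set outside the rule moved less, to 1.049% in CAPS and 0.265% in PS, when it was limited in the same way. The sign of PS less background thus turned with the set chosen, as did that of CAPS with thymine before the cytosine, and no level of 5hmC and no level of 5fC or 5caC per class is given.

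A further set was made of members without a listed partner. For 568406 listed cytosines (1.85% of those listed) the cytosine on the other strand was listed in no library. These had a TAPSβ level of 0.771%, where cytosines with both strands listed had 65.13%. Their CAPS level was 0.779% and hardly changed with the base before, 0.794% with adenine, 0.751% with cytosine, 0.788% with guanine and 0.784% with thymine. Their PS level was 0.198%, 0.166%, 0.154% and 0.122%, the order that the members had without high-PS cytosines. The share of such cytosines was between 0.97% in cgCGac and 3.7% in cgCGca. Whether these CpGs are present in the genome of E14 mESCs was not tested.

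**Figure D5:**
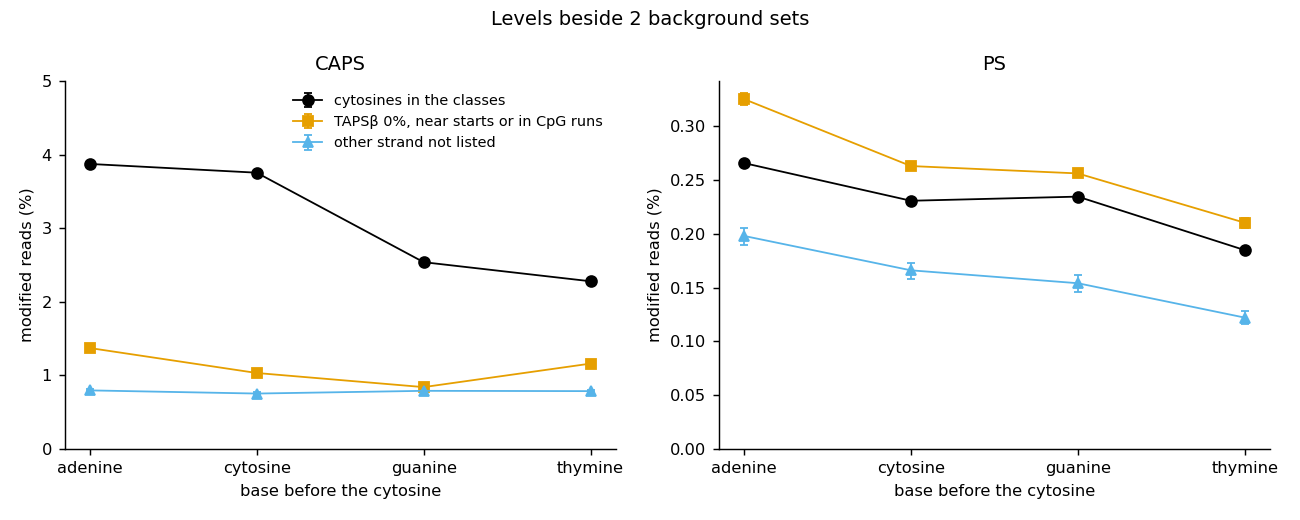
CAPS and PS levels (y axes, percent of modified reads, from 0) by the base before the cytosine (x axis) in the members, in cytosines outside the rule with no modified read in TAPSβ, and in members whose partner on the other strand is not listed, with 95% intervals of counting error. In CAPS the members fall from 3.87% to 2.28% while those without a listed partner stay between 0.751% and 0.794%, and in PS all 3 sets run from adenine as the highest to thymine as the lowest.

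The classes outside the rule gave a check on other CpGs of the same libraries. There CAPS had 4.18% with adenine, 3.26% with cytosine, 2.23% with guanine and 2.45% with thymine before the CpG, so that adenine over thymine was again 1.70 while guanine lay below thymine. At equal TAPSβ level guanine, with 2.50%, lay above thymine, with 2.33%, in that set too. TAPSβ in that set was 41.6%, 29.5%, 28.5% and 38.8%. The CAPS levels of the 4-base classes in members and outside the rule had a Pearson r of 0.808. At equal TAPSβ level the r was 0.925, again a description over 120 pairs and 16 palindromes of 1 library.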

How the data were processed

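TAPSβ, CAPS and PS were each run once on gDNA of E14 mESCs. The authors trimmed reads with Trim Galore 0.3.1, mapped them with BWA 0.7.12 to mm9 with spike-in sequences, removed duplicates with Picard 2.3.0, dropped poorly mapped reads and used asTair for the calls. Sites in regions prone to mapping artefacts or at known E14 variants were left out by the authors in later steps, and whether the deposited tables still hold them is not given in the sources used here. The deposited values are, per CpG cytosine, counts of modified and of unmodified reads and the modified fraction, as the authors made them. The counts were not normalized and the fraction was not used. How well each method converts a modified base next to each sequence was not measured here, so a class level joins the amount of the modification and its conversion in that context.

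Classes were read from the NCBIM37 reference and starts from GENCODE M1. CpGs belonged to a run where at most 50 bases lay between neighbours, and 56 cytosines beside an unknown base were left out. The mean depth was 12.9 reads per listed member in TAPSβ, 9.80 in CAPS and 9.77 in PS. Reads were summed per class. Levels carry exact (Clopper-Pearson) 95% intervals and ratios log-scale intervals. CAPS levels at equal TAPSβ level carry 95% intervals from a normal approximation on the counts of the strata. All these intervals are for counting error only. They treat reads as independent, although 1 read can cover several CpGs. No test between libraries was possible. The calculation at equal TAPSβ level was run on simulated data for chromosome 19 with known factors. The largest error was 0.389%. The simulated CAPS levels were set from the same read-based strata, so this run checked the arithmetic only. It could not show how well the strata match true TAPSβ levels. The named classes were all 16 with 1 base on either side, the 4 highest and 4 lowest of the 4-base classes in each measure, the palindromes and the classes of 3 motifs and 2 enzyme sites. Named sites met a fixed rule on reads, outside chromosome 18. The members, classes and lists were chosen with earlier results of these data known. The filter on CAPS levels in PS was added, and cytosines without a listed partner were set apart, and taken out of the background sets, after the values had been seen. Computations ran in Python 3.11.15 with scipy 1.17.1, numpy 2.4.6, matplotlib 3.10.9 and pandas 2.3.3.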

Additional observations from a re-analysis of the deposited data

How the results depend on the processing

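The ratio between the highest and the lowest of the 16 classes as first ranked kept its direction under all alternatives run, with ranges of 1.162 to 1.217 in TAPSβ, 2.048 to 2.141 in CAPS, 1.549 to 1.83 in PS and 2.073 to 2.202 in CAPS at equal TAPSβ level. The main values were 1.164, 2.101, 1.679 and 2.147. Because the counting intervals are narrow, many small shifts exceed them, and the cause of these shifts was not tested. A minimum of 10 reads in every library gave 2.076 in CAPS, 1.549 in PS and 2.077 at equal TAPSβ level. Averaging single cytosines gave 1.174 in TAPSβ, 1.752 in PS and 2.172 at equal TAPSβ level. Leaving out cytosines modified in 20% or more of their PS reads gave 2.121 in CAPS, 1.83 in PS and 2.172 at equal TAPSβ level, and asking also for 3 modified reads gave 2.12, 1.826 and 2.172. Without excess coverage the values were 2.113 in CAPS, 1.705 in PS and 2.156 at equal level. Equal CpG density gave 1.192 in TAPSβ, 2.11 in CAPS and 2.077 at equal level. Odd-numbered and even-numbered chromosomes gave 1.162 and 1.166 in TAPSβ and 1.716 and 1.643 in PS. Strata from both strands gave 2.173, from the other strand 2.202 and from CpGs within 500 bp 2.073. Leaving out each chromosome in turn gave 1.164 to 1.165 in TAPSβ, 2.099 to 2.105 in CAPS, 1.67 to 1.697 in PS and 2.143 to 2.152 at equal level. The ratio of called shares of 3.774, between aCGg and tCGc, became 3.98 with at least 10 reads and 3.934 without the high-PS ones. The strand ratio of 1.595 moved to 1.596 and 1.599.

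Further alternatives were chosen after seeing the data. Inside genes the ratio was 1.163 in TAPSβ, 2.141 in CAPS, 1.759 in PS and 2.126 at equal level, and outside genes 2.048, 1.634 and 2.123 in the last 3. Equal methylation of the CpGs within 500 bp gave 1.217 in TAPSβ and 2.113 in CAPS. Without classes that hold a second CpG TAPSβ had 1.173. Leaving out cytosines at 20% or more in CAPS gave 1.786 in PS. Only CpGs listed on both strands in all libraries gave 1.17 in TAPSβ and 2.159 at equal level. The alternative without repeats was not run, since the reference used here marks none. No analysis of paired replicates was possible because each method has 1 library. The strands were compared within the same CpGs, but the intervals of those ratios treat the 2 strands as separate counts. Depth limits the levels of single cytosines.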
